A study of Mus musculus with 7 samples.

Results

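The embryonic globins and their companions in the red cell were followed over 7 sorted cell populations of the early mouse embryo. They are 9 genes, found by their names among the probes of the array that were not controls: the alpha-type globins Hba-x, Hba-a1 and Hba-a2, the beta-type globins Hbb-y and Hbb-bh1, the globin chaperone Ahsp, the heme enzyme Alas2, the anion exchanger Slc4a1 and the transcription factor Klf1. They account for 10 of 55681 distinct probes and for 9 of 27126 named genes, and Hbb-y alone has a second probe. The study sorted kidney precursors and the cells around them, and RNA of each population was amplified and hybridised to 1 single-colour Agilent array. All embryos were C57BL6J and carried the Osr1-GFP knock-in, which makes cells with an active Osr1 gene green fluorescent (GFP-positive); Osr1 is a transcription factor of early mesoderm that forms kidney. Whole E8.5 embryos gave GFP-positive and GFP-negative cells. The caudal part of E9.5 embryos gave gated cells (GFP-positive, positive for the integrin Itga8 and negative for the receptor Pdgfra), the GFP-positive cells outside that gate, and cells without GFP. The metanephric mesenchyme at E11.5, the tissue of the future nephrons and renal stroma, gave gated and other GFP-positive cells, and no GFP-negative cells of this stage were analysed here. No population lacked the knock-in, and with 1 array per population there were no replicates and no test. How many embryos were pooled is not given in the sources used here.

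The red cells of the early mouse embryo arise in the yolk sac, enter the circulation with a nucleus and mature there as a cohort, before red cells of the liver take over. Their hemoglobin is built from Hba-x with the adult alpha chains and from Hbb-bh1 with Hbb-y. As these cells mature, Hbb-bh1 is known to give way to Hbb-y, and Hba-x to Hba-a1 and Hba-a2. Erythroid genes are commonly controlled through GATA motifs, read by Gata1, and CACCC boxes, read by Klf1 and related factors.

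The probes for an early alpha gene, an adult alpha gene and the later embryonic beta gene are shown because the stage comparisons rest on them. They are deposited with the array design, run 5′ to 3′ on the coding strand, and none shares a stretch longer than 14 bases with a probe of another gene. The Hba-x probe lies at chr11:32177668-32177727 (plus strand), the Hba-a1 probe at chr11:32183955-32184014 (plus strand) and the Hbb-y probe at chr7:111000448-111000507 (minus strand), in the mm9 coordinates of the design. Each holds a reading frame without a stop codon.
Hba-x: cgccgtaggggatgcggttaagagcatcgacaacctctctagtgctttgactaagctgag
Hba-a1: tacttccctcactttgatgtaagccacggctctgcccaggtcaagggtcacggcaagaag
Hbb-y: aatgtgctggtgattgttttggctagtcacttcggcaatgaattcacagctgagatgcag
The Hba-a1 and Hba-a2 probes each list transcripts of both genes, which are near-identical copies, so each probe was taken as reading adult alpha globin and the signals of the 2 genes cannot be told apart. The second Hbb-y probe lies at chr7:111000268-111000327 and the Hbb-bh1 probe at chr7:110990209-110990268, both on the minus strand. The probes of Hba-a2 (chr11:32197245-32197304, plus strand), Alas2 (chrX:147004993-147005052, plus strand), Slc4a1 (chr11:102210256-102210315, minus strand) and Klf1 (chr8:87428881-87428940, plus strand) complete the set, while the design gives no position for the Ahsp probe.

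The 250 bases before the gene start are shown for Hba-x, Hba-a1, Hbb-y, Alas2 and Klf1, since these genes moved together over the arrays. The sequences are those of RefSeq on GRCm38.p6, which held an upstream region for 6 of the 9 genes, and run 5′ to 3′ on the gene's strand. Capitals mark GATA motifs (GATA with an A or T before it and an A or G after it), CACCC boxes and the CCAAT box, each on either strand, and a TATA-type box (TATAA, or the same with C in first place) read on the gene's strand from 40 to 21 bases before the start.
Hba-x, chr11:32276350-32276599, plus strand: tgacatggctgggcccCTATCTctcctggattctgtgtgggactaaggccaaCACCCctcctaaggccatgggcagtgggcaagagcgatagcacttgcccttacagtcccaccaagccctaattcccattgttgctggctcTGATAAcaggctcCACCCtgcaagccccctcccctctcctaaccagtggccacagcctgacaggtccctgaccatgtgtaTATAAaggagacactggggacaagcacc
Hba-a1, chr11:32283422-32283671, plus strand: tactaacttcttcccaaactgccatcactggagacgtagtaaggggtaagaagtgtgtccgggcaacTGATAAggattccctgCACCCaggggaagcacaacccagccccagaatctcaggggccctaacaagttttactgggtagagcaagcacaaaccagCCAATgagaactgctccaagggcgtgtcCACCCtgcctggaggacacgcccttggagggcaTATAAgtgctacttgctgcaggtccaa
Hbb-y, chr7:103853208-103853457, minus strand: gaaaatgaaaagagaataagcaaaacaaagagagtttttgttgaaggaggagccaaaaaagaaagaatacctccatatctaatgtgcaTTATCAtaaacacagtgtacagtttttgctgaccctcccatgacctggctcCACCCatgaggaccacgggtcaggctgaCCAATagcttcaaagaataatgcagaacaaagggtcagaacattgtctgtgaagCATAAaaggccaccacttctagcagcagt
Alas2, chrX:150547167-150547416, plus strand: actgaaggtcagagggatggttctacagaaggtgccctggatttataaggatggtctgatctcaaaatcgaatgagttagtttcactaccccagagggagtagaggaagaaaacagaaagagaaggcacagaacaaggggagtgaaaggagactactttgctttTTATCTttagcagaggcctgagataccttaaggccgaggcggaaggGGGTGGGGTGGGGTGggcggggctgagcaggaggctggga
Klf1, chr8:84901732-84901981, plus strand: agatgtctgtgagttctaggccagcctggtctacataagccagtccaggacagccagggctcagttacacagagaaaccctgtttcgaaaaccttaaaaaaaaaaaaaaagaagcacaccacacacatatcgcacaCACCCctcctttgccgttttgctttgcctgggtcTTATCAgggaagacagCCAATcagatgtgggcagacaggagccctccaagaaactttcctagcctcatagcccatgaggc
The Hba-a2 region (chr11:32296242-32296491) was identical to that of Hba-a1 over all 247 bases that overlap once shifted by 3 bases. A GATA motif stood in 6 of the 6 regions, against 26.5% of 32851 RefSeq regions of the same length, and CACCC in 6 of 6, against 52.0%. CCAAT was found in 4 of 6 (33.8% of all regions) and the TATA-type motif in 4 of 6 (4.59%). GATA, CACCC and CCAAT occurred together in 4 of 6 regions, against 3.92% of all. The 6 regions include both Hba-a1 and Hba-a2, so they are not 6 separate sequences. Both copies are among the 4 regions counted for CCAAT, for the TATA-type motif and for the combination. The wider motif CCNCNCCC, which can overlap CACCC, stood in 2 of 6 regions and in 45.9% of all. The start-proximal boxes of the globins lay at like distances. TATAA stood 28 to 24 bases before the Hba-x start and 27 to 23 before the Hba-a1 start, and CATAA 29 to 25 before that of Hbb-y, while Alas2 had 3 CACCC boxes in reverse orientation between 40 and 26 bases before its start. These are matches of letters and were not tested as binding sites. Hbb-bh1, Ahsp and Slc4a1 are named only.

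Levels are log2 processed signal minus the log2 75th percentile of the array, so a level of 0 is the brightness of that percentile and 1 unit is a factor of 2. Levels of different probes are not set against each other, except in the summed signals of marker lists, where the brightest probes weigh most. Between 56.2% (E8.5 GFP-negative) and 84.1% (E9.5 other GFP-positive) of spots per array were well above background. The 399 probes spotted 10 times gave a standard deviation (SD) of 0.11 within an array, or 0.15 for a difference, and differences under 0.3 are called within spot noise. This covers neither embryos, sorting nor amplification. The arrays of gated and of GFP-negative E9.5 cells lay on a second slide, so 5 of the 10 comparisons run across slides, where slide and population cannot be told apart. Osr1 was not well above background on either GFP-negative array, with -3.23 at E8.5 and -4.38 at E9.5, against levels from -1.80 to 1.63 on the GFP-positive arrays. No member spot was saturated or excluded.

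All 9 genes were brightest in the GFP-negative cells of E8.5, with those of E9.5 next, although for Hbb-y these 2 were within spot noise and their order changed with the scaling. Members well above background numbered 8 of 9 in GFP-positive cells of E8.5 and 9 of 9 in the GFP-negative ones. At E9.5 they numbered 5 in the gate, 8 in other GFP-positive cells and 9 in GFP-negative cells, and at E11.5 they numbered 6 and 7 in gated and other GFP-positive cells. In the same order the median member level was -1.70 and 8.30 at E8.5, then -3.16, -0.98 and 6.68 at E9.5, and -3.86 and -3.93 at E11.5. The largest gap in the order of arrays came after the GFP-negative pair for every member except Klf1, whose largest gap of 3.30 separated the E8.5 from the E9.5 GFP-negative array.

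**Figure D1:**
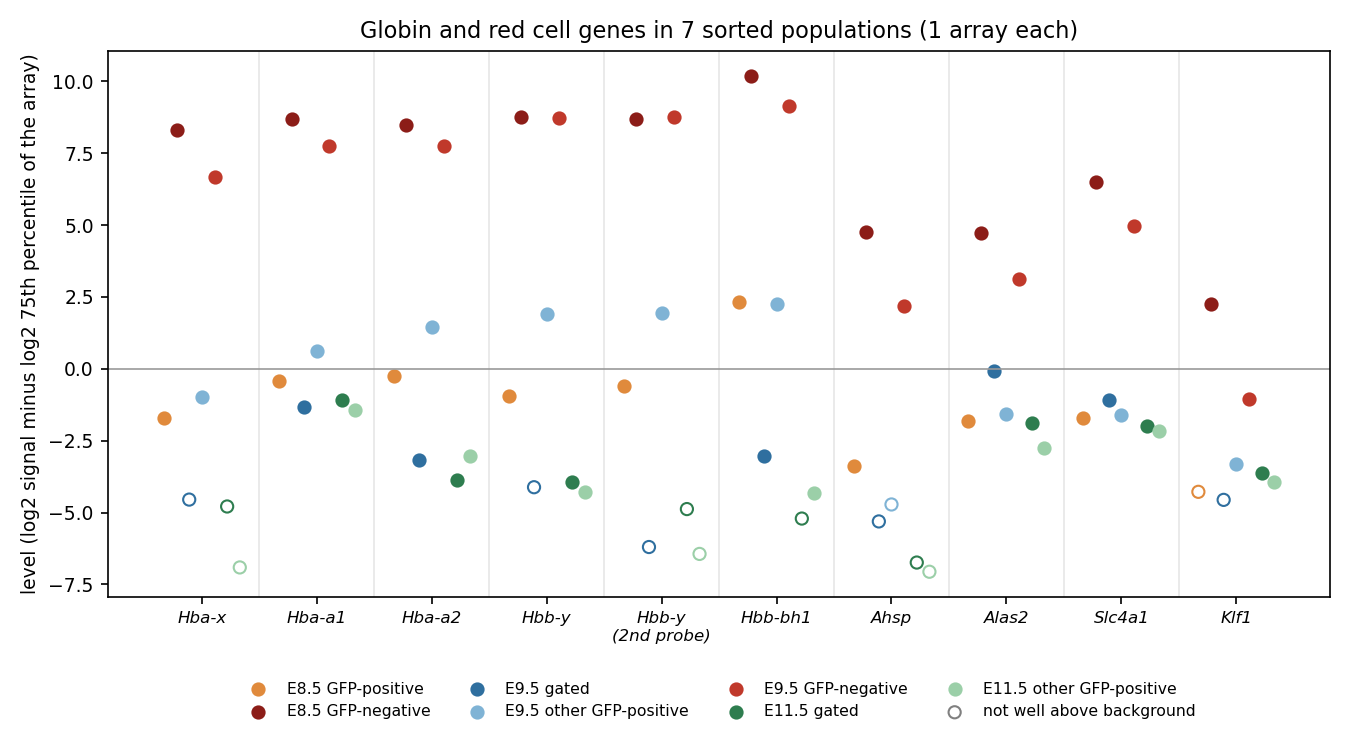
Level of each probe (vertical axis, log2 signal minus the log2 75th percentile of the array) in the 7 populations, 1 point per array with no error bar because there are no replicates; open points are not well above background. The GFP-negative points of both stages stand above every other point of the same gene, and Klf1 has the smallest distance between them and the rest.

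Hba-x encodes zeta globin, the embryonic alpha-type chain. Its level was -1.70 in GFP-positive and 8.30 in GFP-negative cells at E8.5, then -4.55 in gated, -0.98 in other GFP-positive and 6.68 in GFP-negative cells at E9.5, and -4.79 and -6.91 in gated and other GFP-positive cells at E11.5. Both GFP-negative values stood over 7 units above the rest, and the signals in the E9.5 gate and in both E11.5 populations were not well above background. For Hba-a1, an adult alpha globin, the levels were -0.41 and 8.70 at E8.5, -1.33, 0.63 and 7.74 at E9.5, and -1.09 and -1.44 at E11.5, in the same order of populations. It was above background on all 7 arrays, and the E9.5 gate did not differ beyond spot noise from either E11.5 population. Its copy Hba-a2 read -0.25 and 8.49 at E8.5, -3.16, 1.47 and 7.75 at E9.5, and -3.86 and -3.02 at E11.5. The probes of the copies gave different contrasts at E9.5: between the gate and the cells outside it the Hba-a2 difference was 2.68 below that of Hba-a1, a 6.39-fold disagreement.

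Hbb-y encodes epsilon globin, the later embryonic beta-type chain, and was measured by a pair of probes. The first read -0.96 in GFP-positive and 8.76 in GFP-negative cells at E8.5, -4.12, 1.92 and 8.74 at E9.5 (gated, other GFP-positive, GFP-negative), and -3.95 and -4.28 at E11.5 (gated, other GFP-positive). The second read -0.61 and 8.70 at E8.5, -6.20, 1.94 and 8.75 at E9.5, and -4.88 and -6.44 at E11.5. Both probes put the GFP-negative cells of E8.5 and E9.5 within spot noise of each other at this scaling. With no scaling between arrays the E9.5 level of Hbb-y was 0.36 above that of E8.5, past spot noise, and with quantile normalization 0.22 above. In the E9.5 gate neither probe cleared background, and at E11.5 only the first did. Hbb-bh1, the beta-type chain of the earliest red cells, stood at 2.32 and 10.20 at E8.5, at -3.05, 2.27 and 9.15 at E9.5, and at -5.21 and -4.31 at E11.5, in the same order. Its values in E8.5 GFP-positive and E9.5 other GFP-positive cells lay within spot noise of each other, and both exceeded its values in the E9.5 gate and at E11.5.

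Ahsp, the chaperone that stabilises free alpha globin, stood at -3.38 in GFP-positive and 4.77 in GFP-negative cells at E8.5. At E9.5 it read -5.31 in gated, -4.72 in other GFP-positive and 2.18 in GFP-negative cells, and at E11.5 -6.74 and -7.06 in gated and other GFP-positive cells. Only the E8.5 arrays and the E9.5 GFP-negative array were well above background. Alas2, which makes the first and rate-limiting step of heme synthesis in red cells, read -1.83 and 4.72 at E8.5, -0.07, -1.57 and 3.14 at E9.5, and -1.87 and -2.74 at E11.5. Among GFP-positive populations the E9.5 gate ranked highest, where it ranked below the other E9.5 cells for each globin. Slc4a1, the band 3 chloride and bicarbonate exchanger of the red cell membrane, read -1.71 and 6.50 at E8.5, -1.10, -1.60 and 4.96 at E9.5, and -2.0 and -2.16 at E11.5. Its GFP-positive values lay close together, again with the E9.5 gate highest. Klf1, the factor that switches on many erythroid genes, read -4.28 and 2.26 at E8.5, -4.56, -3.30 and -1.04 at E9.5, and -3.62 and -3.93 at E11.5. Its signal in the E8.5 GFP-positive cells and the E9.5 gate did not clear background.

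At E8.5, GFP-positive cells held far less of every member than GFP-negative cells. All 9 were at least 4-fold lower, against 2.19% of all 20109 genes measured there, and the median member difference was -8.22 against a median of 0.0 over all genes. Hba-x was 1022-fold lower, Hbb-y 840-fold (log2 difference -9.71), Hba-a1 552-fold (-9.11) and Hba-a2 428-fold (-8.74). The smallest globin difference was that of Hbb-bh1, 234-fold lower (-7.87), so that Hbb-y was depleted 3.59-fold more than Hbb-bh1 and Hba-x 4.36-fold more. Among the other genes Slc4a1 was 298-fold lower, Ahsp 286-fold, Alas2 93.4-fold and Klf1 at least 93.0-fold, where "at least" marks a fold whose dimmer side was not well above background. Both arrays lay on one slide. In bulk RNA, fewer red cells in a population and less of a transcript per cell cannot be told apart. Markers of the red cell lineage were lower too, Ermap least of all: all 8 were well above background in GFP-negative and 3 of 8 in GFP-positive cells, with summed signals of 6.92 in GFP-positive against 78.4 in GFP-negative cells in units of the 75th percentile. Gata1, Nfe2 and Rhag were among those that did not clear background in the GFP-positive cells. Ermap, an erythroblast membrane protein, read between 1.95 and 2.65 on all 7 arrays and made up most of the summed signal on every GFP-positive array, so these sums say little of the other 7 markers there. All 8 are also counted in the pathway lists. Their part in the result was not tested.

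At E9.5, all 9 members were again at least 4-fold lower in both GFP-positive populations than in the GFP-negative cells. The shares over all genes were 1.64% for the gate and 1.26% for the other GFP-positive cells. These comparisons use the same GFP-negative array, so the values are given side by side. Hbb-bh1 was 4709-fold lower in the gate and 118-fold lower in the other GFP-positive cells, Hba-a2 1918-fold and 77.3-fold, and Hba-a1 537-fold and 138-fold. For Hbb-y the folds were at least 7450 in the gate and 113 in the other GFP-positive cells, and for Hba-x at least 1813 and 202. Globin folds were thus larger in the gate, while Alas2 ran the other way, 9.23-fold lower in the gate and 26.0-fold in the other GFP-positive cells. Slc4a1 was 67.0-fold and 94.9-fold lower, Ahsp at least 79.9-fold and at least 106-fold. Klf1 had the smallest difference among the other GFP-positive cells, 4.79-fold, and was at least 8.61-fold lower in the gate, and under normexp, another background correction, neither passed 4-fold (log2 differences of -1.17 in the gate and -1.0 in the other GFP-positive cells). The median member difference was -9.07 in the gate and -6.73 in the other GFP-positive cells, with 0.01 and 0.13 over all genes. Red cell markers were well above background in 4 of 8 cases in the gate, 6 in other GFP-positive and 8 in GFP-negative cells, with summed signals of 6.38 in the gate, 5.67 in other GFP-positive and 12.1 in GFP-negative cells, and their part was not tested. Gata1 and Rhag cleared background in the other GFP-positive cells (-3.77 and -4.39) but not in the gate. The dimmest well-above level of the gate's array was -4.14. As a bound, the gate was at least 1.3-fold lower for Gata1. For Rhag no useful bound could be set, since its level outside the gate lay below the dimmest well-above level of the gate's array. Spots well above background made up 72.4% in the gate and 84.1% in the other cells, so detection differed as well. Against GFP-negative cells, 3 of 8 markers were at least 4-fold lower in the gate and 2 of 8 in the other cells. The gate shares a slide with the GFP-negative array, and the other GFP-positive array does not.

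**Figure D2:**
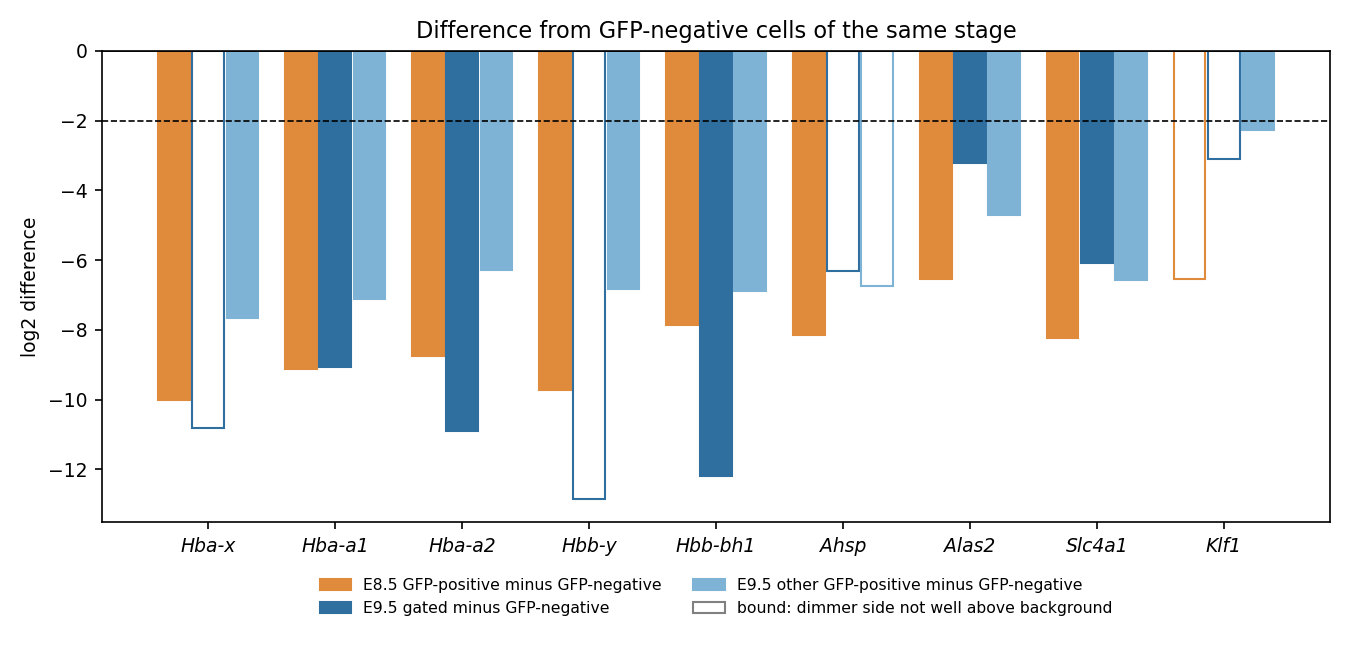
Log2 difference of each member from the GFP-negative cells of the same stage (bars, 1 array against 1 array), with the dashed line at 4-fold and open bars for bounds. Every bar passes the line. The E9.5 gate has the lowest bars for Hba-x, Hba-a2, Hbb-y and Hbb-bh1 and the shortest for Alas2.

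Set directly against the other GFP-positive cells of E9.5, the gate was lower for globins and not for Alas2 or Slc4a1. Of 8 members measured, 4 were at least 4-fold lower, against 0.94% of all genes, and none was 4-fold higher, against 0.834%. The lower genes were Hbb-y (at least 65.8-fold), Hbb-bh1 (39.8-fold), Hba-a2 (24.8-fold) and Hba-x (at least 8.99-fold), and Hba-a1 was just short of the threshold with 3.89-fold. Alas2 was 2.82-fold higher in the gate, at -0.07 against -1.57, and Slc4a1 1.42-fold higher. Klf1 was at least 1.80-fold lower, and Ahsp was below background on both arrays. With the 2 alpha copies counted as a single gene, the pair spans both sides of the 4-fold threshold. The gated and other GFP-positive arrays lay on different slides. Markers of the sort itself followed the labels, with Itga8 at 2.15 against 0.20 and Pdgfra at -0.52 against 3.44.

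At E11.5, 0 of 7 measured members differed 4-fold between the gate and the other GFP-positive cells. Over all genes 5.07% did in either direction, so a count of 0 among 7 is near that share. The median member level was -3.86 in the gate and -3.93 in the other cells. The dimmest well-above levels of these arrays were -4.78 and -4.85, so dim members had little room to be lower. Hbb-bh1 was at least 1.38-fold lower in the gate, a bound that cannot place it within 2-fold. The other measured members lay within 2-fold, which 18.6% of all genes did not, with differences from -0.84 (Hba-a2) to 0.87 (Alas2). With no scaling Hba-a2 was at -1.05, past 2-fold. The median over the 7 was 0.32, against 0.15 over all genes. Hba-x and Ahsp were below background in both populations. Hba-a1 was 1.28-fold higher in the gate and Hba-a2 1.79-fold lower, so the alpha copies again disagreed. The red cell markers had 5 of 8 genes well above background in each population and summed signals of 4.74 in the gate against 7.20 in the other cells, of which Ermap, at levels of 2.08 and 2.65, was the main part.

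Between E9.5 and E11.5 the globins of the other GFP-positive cells were lower at the later stage, while those of the gate were already low. In the other GFP-positive cells 5 of 8 measured members were at least 4-fold lower at E11.5, against 2.94% of all genes. These were Hbb-bh1 (95.3-fold), Hbb-y (73.4-fold), Hba-a2 (22.5-fold), Hba-x (at least 14.7-fold) and Hba-a1 (4.19-fold). The call of Hba-a1 lies at the threshold, since its log2 difference of -2.07 was -1.90 with no scaling, -1.94 with the 75th percentile taken over probes above background on all arrays and -1.56 with normexp, none of which passes 4-fold. Alas2, Klf1 and Slc4a1 were 2.26-fold, 1.55-fold and 1.47-fold lower, beside a median log2 difference of -0.36 over all genes, and the difference of Klf1 changed sign under quantile normalization (0.12 in place of -0.63). In the gate 0 of 7 members passed 4-fold, which is near the share of 3.78% of all genes in either direction. Hbb-bh1 was at least 3.32-fold lower at E11.5 and Alas2 3.49-fold lower, with Hba-a1 1.18-fold higher and Hba-a2 1.63-fold lower. Tissue and stage change together here, since E9.5 cells came from the caudal part and E11.5 cells from the metanephric mesenchyme, and the gated arrays also lay on different slides.

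Between E8.5 and E9.5 the GFP-negative cells differed by member in a graded way. Klf1 was 9.86-fold lower at E9.5 (-1.04 against 2.26) and Ahsp 6.06-fold lower (2.18 against 4.77), and these were the 2 of 9 members past 4-fold, against 1.54% of all genes that were 4-fold lower. Hba-x was 3.07-fold lower, Alas2 2.99-fold, Slc4a1 2.91-fold and Hbb-bh1 2.06-fold. Hba-a1 was 1.95-fold lower and Hba-a2 1.68-fold lower, and Hbb-y differed by -0.02, with 0.05 on its second probe. Tissue source, stage and slide all change between these arrays and cannot be told apart. The difference between members on the same pair of arrays does not depend on the scaling by a single factor. On that measure Hbb-y stood 2.04-fold higher relative to Hbb-bh1 at E9.5 (2.12-fold on its second probe), Hba-a1 1.57-fold and Hba-a2 1.83-fold higher relative to Hba-x. Relative to Hba-a1, Klf1 was 5.06-fold lower and Ahsp 3.11-fold lower.

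The GFP-positive cells gave the same order of beta-type genes from arrays that share a slide. Tissue source, sort and stage still change together and cannot be told apart. The E8.5 cells came from whole embryos without the gate, and the E9.5 cells from the caudal part, outside the gate. In the other GFP-positive cells of E9.5, Hbb-y was 7.34-fold higher than in the GFP-positive cells of E8.5 (1.92 against -0.96), while Hbb-bh1 was 1.04-fold lower (2.27 against 2.32). Relative to Hbb-bh1, Hbb-y was thus 7.64-fold higher, and 6.07-fold on its second probe, against 2.04-fold and 2.12-fold in GFP-negative cells. Hba-a2 was 3.31-fold higher, Hba-a1 2.05-fold and Hba-x 1.65-fold, which places Hba-a2 2.0-fold and Hba-a1 1.24-fold higher relative to Hba-x. Hbb-y was the only one of 9 members past 4-fold, where 1.17% of all genes were 4-fold higher and 0.815% lower. Ahsp was at least 2.25-fold lower, Alas2 and Slc4a1 differed by 1.20-fold and 1.08-fold, and Klf1 was at least 1.97-fold higher. The gate of E9.5, whose array lay on the second slide, differed from the same E8.5 array in the other direction for the globins. There 4 of 8 measured members were 4-fold lower, against 1.32% of all genes: Hbb-bh1 by 41.4-fold, Hbb-y by at least 8.97-fold, Hba-a2 by 7.51-fold and Hba-x by at least 5.44-fold, while Alas2 was 3.38-fold higher.

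**Figure D3:**
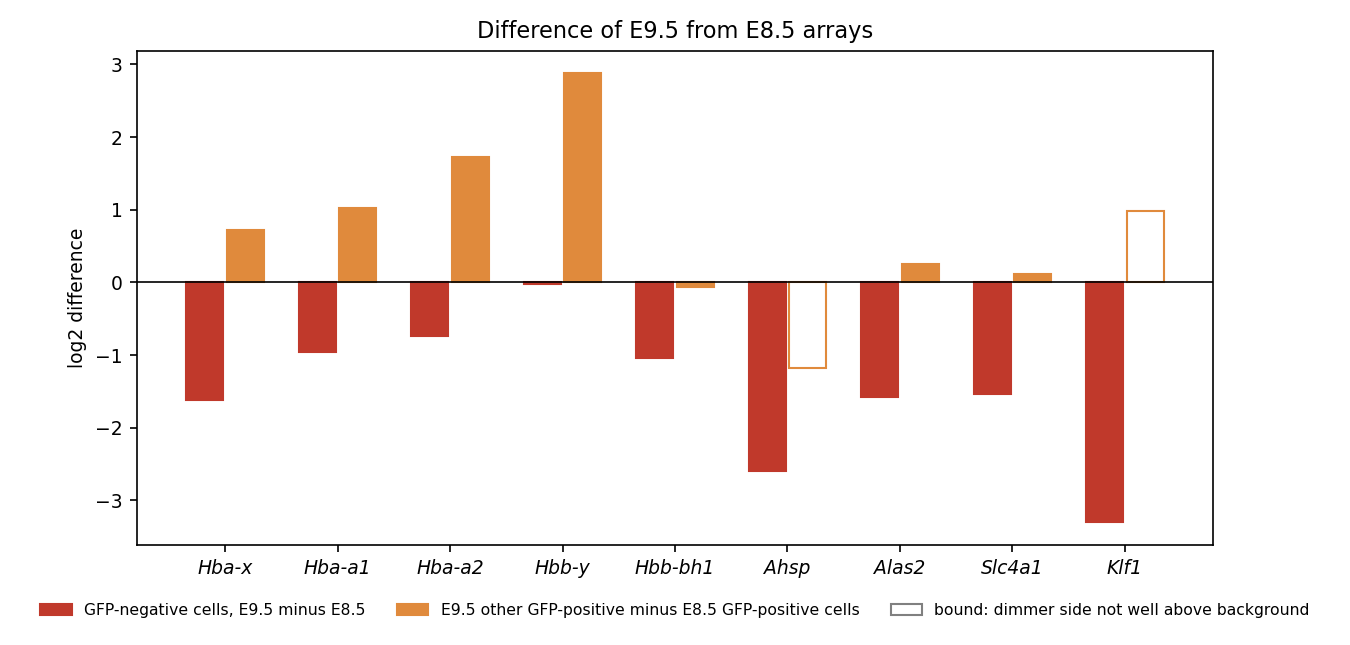
Log2 difference of E9.5 from E8.5 for each member (vertical axis) in GFP-negative cells and in other GFP-positive E9.5 against GFP-positive E8.5 cells, 1 array against 1 array, open bars being bounds. Hbb-y lies above Hbb-bh1 in both series, and the adult alpha genes lie above Hba-x in both.

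The members moved alike over the arrays. Pearson's r of each member with the mean of the others ran from 0.906 (Klf1) to 0.992 (Hba-x) over 7 arrays, a description that is set largely by the GFP-negative pair. Outside the set, the 10 genes most like the mean member, out of 1421 that spanned at least 4 log2 units, had r from 0.962 to 0.99, and 9 of them are given here. Rhd, a Rhesus blood group protein, came first (0.99), then Epb42, the membrane skeleton protein 4.2 (0.984), and Car2, a carbonic anhydrase, had 0.973. Mrap, the accessory protein of the corticotropin receptor, had 0.971, LOC100046690 0.967, the exchange factor Cyth4 0.965 and the zinc finger factor Zic5 0.964. Hbb-bt, an adult beta globin, had 0.963 and Lmx1a, a transcription factor known from the developing brain, 0.962. Cyth4, Zic5 and Hbb-bt cleared background in GFP-negative cells alone, Rhd and Epb42 on 3 of 7 arrays and LOC100046690 on 4. Their likeness on the remaining arrays rests on dim spots. Hbb-bt stood at 3.67 in GFP-negative cells of E8.5 and at 3.50 in those of E9.5. Mrap and Lmx1a were above background on all 7 arrays, and Lmx1a reached 4.87 and 3.72 in the GFP-negative cells of E8.5 and E9.5, against -3.78 to -1.43 elsewhere.

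Other genes of the red cell pathway were counted in lists by role. At E8.5, GFP-positive cells were at least 4-fold lower than GFP-negative cells for 13 of 20 membrane and skeleton genes, 10 of 18 genes of heme synthesis and its iron supply, 8 of 19 enzymes and maturation genes, 7 of 17 transcription factors, 4 of 5 other globins and 2 of 9 receptor and signalling genes, and 0 members of these lists were 4-fold higher. The shares over all genes were 2.19% lower and 0.895% higher. Medians ran from -4.69 (other globins) and -4.16 (membrane) over -2.17 (heme), -1.61 (enzymes) and -1.5 (transcription factors) to -1.21 (receptors). Among membrane genes, the adducin Add2 was at least 68.4-fold lower, Rhd at least 61.1-fold and Ank1, the ankyrin that ties band 3 to spectrin, 47.3-fold. In the heme list the mitochondrial iron importer Slc25a37 was 21.3-fold lower, the mitochondrial transporter Abcb10 13.3-fold, the transferrin receptor Tfr2 at least 9.61-fold and the heme enzyme Uros 9.13-fold. The transcription factors Gata1, Nfe2 and Gfi1b had bounds of 813-fold, 97.5-fold and 70.7-fold on the lower side, and E2f2 was lower by 5.55-fold. Car2 was 148-fold lower, Blvrb, a biliverdin reductase, 95.5-fold, Nxpe2 at least 51.3-fold and Trim10 42.4-fold, and the erythropoietin receptor Epor was 47.5-fold lower. Hbb-bt was at least 311-fold lower, Hbb-b2 at least 35.5-fold, Hbb-bh2 25.9-fold and Hbq1b 6.52-fold. Adult beta genes are near-identical copies, so which of them a probe reads is uncertain.

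The same lists were counted at E9.5 against the shared GFP-negative array. The gate and the other GFP-positive cells were 4-fold lower than GFP-negative cells for 6 of 17 and 7 of 18 membrane genes, 6 of 18 and 5 of 19 enzymes, 2 of 18 and 1 of 18 heme genes, and 2 of 16 and 2 of 17 transcription factors, against 1.64% and 1.26% of all genes. The other globins had 2 of 4 and 2 of 5 lower and the receptors 1 of 8 and 0 of 9. Gata1 was at least 38.7-fold lower in the gate and 29.9-fold in the other GFP-positive cells, and Car2 42.0-fold in each. In the gate against the other GFP-positive cells, 0 members of the lists were 4-fold lower, and Ank1 alone was 4-fold higher, 4.2-fold, at 0.92 against -1.15.

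The GFP-negative cells of E9.5 were in turn lower than those of E8.5 for much of the pathway. At least 4-fold lower were 10 of 20 membrane genes (median -1.94), 7 of 17 transcription factors (-1.59), 7 of 19 enzymes (-1.09), 4 of 18 heme genes (-1.63), 1 of 5 other globins (-1.71) and 1 of 9 receptors (-1.0), and the share over all genes was 1.54%. Among regulators, Gata1 was 16.1-fold lower (1.13 against 5.13), Gfi1b 12.5-fold, Nfe2 11.3-fold and Tal1 8.45-fold, beside Epor at 8.17-fold. Car2 was 8.11-fold lower, Trim10 6.66-fold and Nxpe2 5.84-fold. Among membrane genes the capping protein Tmod1 was at least 18-fold lower, the ammonium channel Rhag 5.88-fold and the adhesion molecule Icam4 5.65-fold. Abcb10 was 5.69-fold lower, and the heme genes Uros and Tmem14c were 4.81-fold and 4.78-fold lower. Hbb-bh2 was 8.47-fold lower, while Hbb-bt stood at 3.50 at E9.5 against 3.67 at E8.5. Each gene named here except Hbb-bt was lower by more than Hba-a1, Hba-a2 and Hbb-y were on these arrays.

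**Figure D4:**
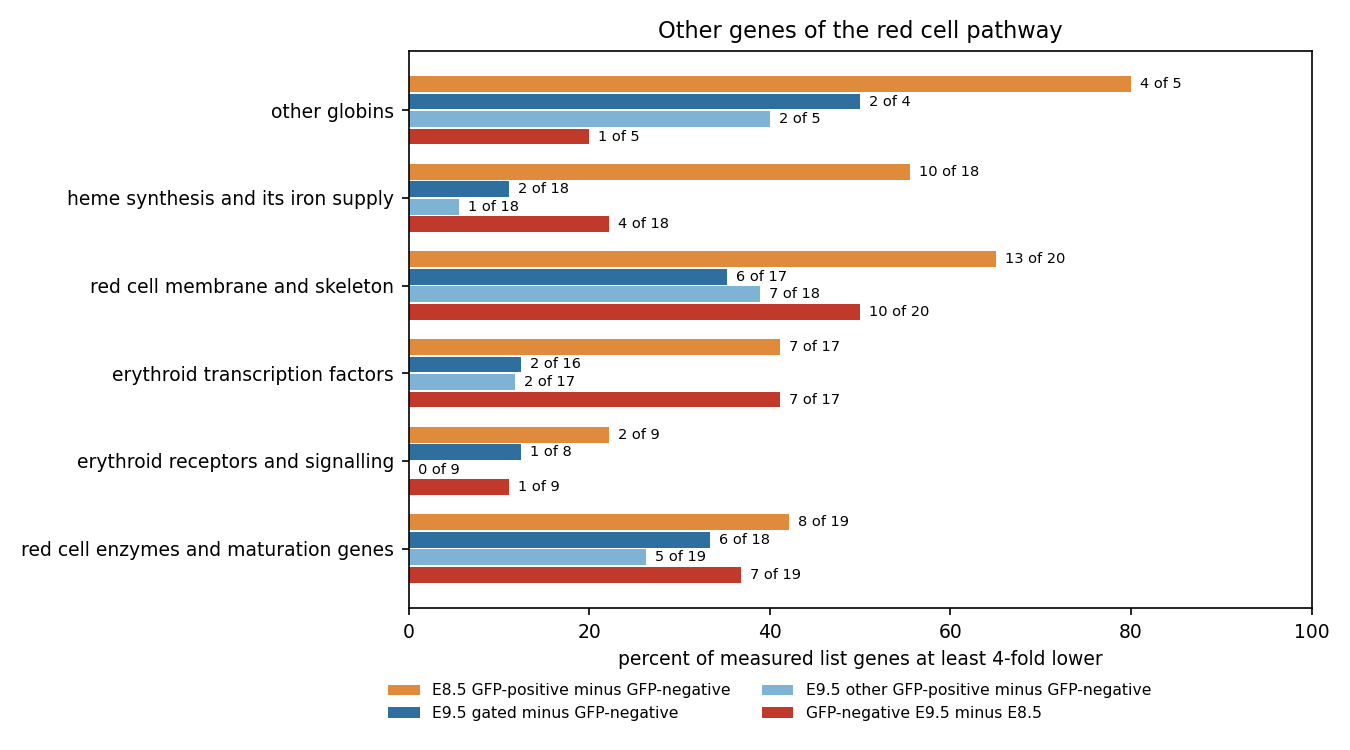
Share of measured genes of each list (horizontal axis, percent) that were at least 4-fold lower in 4 comparisons, with the counts printed at the bars. At E8.5 the other globins (4 of 5) and the membrane genes (13 of 20) have the longest bars, and the shares over all genes in these comparisons are between 1.26% and 2.19%.

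Markers of other cell types were read on the same arrays. Of the yolk sac endoderm list, 5 of 9 genes were at least 4-fold lower in the GFP-negative cells of E9.5 than in those of E8.5, against 1.54% of all genes, with a median of -2.28 and summed signals of 2.14 at E9.5 against 7.18 at E8.5. Apob was at least 12.5-fold lower, Ttr at least 11.2-fold, Apoa1 6.90-fold and Cubn at least 5.35-fold, on arrays where red cell regulators were lower too. Against GFP-positive cells of E8.5, 6 of 9 genes were 4-fold lower in the E9.5 gate (median -2.42). In the other GFP-positive cells 3 of 9 were (-1.29). The shares over all genes were 1.32% and 0.815%. Of the erythroid transcription factors 0 of 14 and 2 of 17 were lower there, with medians of -0.17 and 0.39. The part of the yolk sac endoderm list was not tested. Within E8.5 the list had 0 of 9 members past 4-fold, with summed signals of 4.48 in GFP-positive against 7.18 in GFP-negative cells. Of the endothelial genes, 0 of 10 were 4-fold lower and 1 of 10 was 4-fold higher in GFP-positive than in GFP-negative cells at E8.5. Their summed signals were 34.9 against 18.3, carried mostly by Egfl7 with levels of 4.56 and 3.37. The median difference of the list was 0.24, against 0.0 over all genes. Tie1 and Emcn were lower in GFP-positive cells, and Pecam1, Cdh5 and Tek were within spot noise. Kdr, Cldn5, Egfl7, Esam and Sox17 were higher. At E9.5 the endothelial sums were 19.6 in the gate, 12 in other GFP-positive and 9.43 in GFP-negative cells. Egfl7 was again the brightest of the list, with levels of 3.50, 2.64 and 2.19. Megakaryocyte genes had 0 of 4 measured members past 4-fold at E8.5 and summed signals of 1.32 in GFP-positive against 2.29 in GFP-negative cells. At E9.5 the sums were 1.85 in the gate, 1.43 in other GFP-positive and 3.76 in GFP-negative cells. For macrophage and white cell genes the sums lay between 13.5 and 17 on all 7 arrays, carried by Csf1r with levels from 3.64 to 3.95.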

How the data were processed

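Total RNA (10 ng per population, per the labels) was amplified, labelled with Cy3 and read on 1 array for each of 7 populations. The intensity in the deposited files is the processed signal of Agilent Feature Extraction (version 10.7.3.1 in the submitters' processing notes), which per the file headers is background-subtracted and detrended and not scaled between arrays. The deposited value table holds the same values.

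Signals were scaled to each array's 75th percentile over 59305 non-control spots and put on the log2 scale, spots of a probe were averaged without flagged spots, and a gene took its probe with the highest mean. Of the probes, 26425 were named through RefSeq accessions. A gene was measured where at least 1 array was well above background, and the other side was then set no lower than the dimmest well-above level of its array, which gives a bound. A difference was called from 4-fold, and with 1 array per population there is no p-value so precision is limited by the number of arrays. The named genes are all members, the 10 genes most like them, and up to 4 genes per list past 4-fold, largest first, and values outside that rule were picked after they were seen. Some genes under this rule are not reported here by name. Members and the 14 lists (134 genes, with 5 further symbols not matched to a probe) were chosen with earlier results of these data known. Alternatives were no scaling, quantile normalization, another percentile set, normexp (limma 3.58.1), other filters, probes and folds. The scripts were tested on simulated data and ran in Python 3.11.15 and R 4.3.3.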

Additional observations from a re-analysis of the deposited data

Results flagged for a closer look

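For 7 genes a difference had opposite signs in 2 settings compared the same way, with 1 array per population. These contrasts between settings were not tested, and in each of them at least 1 of the 2 differences runs across slides. Between the gate and the other GFP-positive cells, Hba-a1 differed by -1.96 at E9.5 and by 0.35 at E11.5, Hbb-y by a bound of -6.04 at E9.5 and by 0.33 at E11.5, and Klf1 by a bound of -0.85 at E9.5 and by 0.32 at E11.5 (all log2). With no scaling these E11.5 differences were 0.14, 0.12 and 0.1, within spot noise, so their sign is not resolved. The second Hbb-y probe was not well above background on either E11.5 array. Between E11.5 and E9.5, Klf1 differed by a bound of 0.53 in the gate and by -0.63 in the other GFP-positive cells. Between E9.5 and E8.5, the other GFP-positive cells differed from the earlier GFP-positive cells by 0.72 for Hba-x, 1.03 for Hba-a1, 1.73 for Hba-a2 and a bound of 0.98 for Klf1, where the GFP-negative cells differed by -1.62, -0.96, -0.74 and -3.30. Over the same stages Alas2 differed by 1.76 in the gate and by -1.58 in GFP-negative cells, and Slc4a1 by 0.61 in the gate and by -1.54 in GFP-negative cells. Klf1 lay close to background on every GFP-positive array, with levels from -4.56 to -3.30.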

How the results depend on the processing

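Of 90 counts recomputed under another setting, 79 stayed within 1.5 times the reported count. Of 645 recomputed member differences, 185 moved by at least the spot SD of a difference (0.15), and with normexp 65 of 83 did. Keeping flagged spots (83 values) and requiring both arrays above background (64 values) could not move a member value. No difference of at least 2-fold changed sign, although 5 smaller differences did. With quantile normalization these were Klf1 in other GFP-positive cells of E11.5 against E9.5 (0.12 in place of -0.63), and Hbb-bh1 (0.07 in place of -0.06, and 0.06 with the other percentile set) and Slc4a1 (-0.06 in place of 0.11) in other GFP-positive E9.5 against GFP-positive E8.5 cells. Hbb-y in GFP-negative cells of E9.5 against E8.5 (-0.02) was 0.36 with no scaling and between 0.01 and 0.22 in 4 other settings, and Slc4a1 in the E11.5 gate against other cells was -0.05 with no scaling in place of 0.16. For GFP-positive against GFP-negative cells of E8.5 the count of 9 became 8 among genes above background on both arrays and stayed at 9 in the other settings. Quantile normalization gave 2 members in place of 1 for E9.5 other GFP-positive against E8.5 GFP-positive cells. The normexp background, whose offset compresses dim signals, gave 1 in place of 4 for gated E9.5 against GFP-positive E8.5 cells and 3 in place of 5 for the other GFP-positive cells of E11.5 against E9.5, where the count was 4 with no scaling and with the other percentile set. Within the GFP-positive cells of E9.5, gated against other, Hba-x lost its call with normexp (-1.32) and Hba-a1 gained one with quantile normalization (-2.08). Without filter and bound, the gate against other GFP-positive cells of E11.5 and the gate of E11.5 against E9.5 had 1 in place of 0. With probes above background on both arrays only, which leaves fewer genes, the E9.5 gate had 2 in place of 4 against other GFP-positive cells, 5 in place of 9 against GFP-negative cells and 2 in place of 4 against GFP-positive E8.5 cells. At 2-fold the counts were 6 in place of 2 for GFP-negative cells of E9.5 against E8.5, 4 in place of 1 for E9.5 other GFP-positive against E8.5 GFP-positive cells, and 2 in place of 0 for the gate of E11.5 against E9.5. Over all genes the share apart in either direction, between 1.77% and 5.07% as reported, ran from 0.393% to 1.5% with normexp, from 4.24% to 11.9% without filter and bound, from 1.42% to 3.63% above background on both arrays, from 2.42% to 4.94% with quantile normalization and from 11.1% to 26.8% at 2-fold. The largest move of a member difference was 2.56 log2 units, for Klf1 at E8.5 with normexp (-3.98). Hbb-y relative to Hbb-bh1, recomputed after the data were seen, was higher at E9.5 by 0.94 and 1.10 in GFP-negative cells and by 2.73 and 2.42 in GFP-positive cells with quantile normalization and normexp, against 1.03 and 2.93. Hba-a1 and Hba-a2 stayed higher relative to Hba-x in both. No paired analysis was possible because each population has 1 array, and for the same reason no array could be left out and the slide could not be fitted as a block. Dim members, Klf1 and Ahsp above all, are limited by their distance from background: Agilent's own error of a spot was 10.0% for the bright globin spots and up to 100% for the dimmest.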

Other observations

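Of 6 megakaryocyte genes, Pf4, a platelet chemokine, stood apart in the GFP-negative cells of E9.5, 8.49-fold higher than in those of E8.5 (0.41 against -2.68). The white cell adaptor Tyrobp was at least 7.31-fold higher there (-0.59 at E9.5). Both genes were thus higher at E9.5 on the pair of arrays where Klf1, Ahsp and Gata1 were lower. Pf4 was the 1 of 5 measured megakaryocyte genes that was 4-fold higher, and Tyrobp the 1 of 7 macrophage and white cell genes. The list medians were 0.54 and 0.35, and 3.08% of all genes were 4-fold apart in either direction.

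Some genes of the erythroid lists are also known from other lineages and moved apart from the globins. In the gate of E11.5 against that of E9.5, 4 of 15 measured transcription factors of the list were at least 4-fold lower, where 3.78% of all genes were 4-fold apart in either direction: Lmo2 35.5-fold, Lyl1 15.1-fold, Gata2 at least 5.79-fold and Tal1 4.9-fold. Endothelial markers were lower on the same arrays in 7 of 10 cases, with Cdh5 at least 37.6-fold and Sox17 at least 19.4-fold lower. The part of the endothelial markers was not tested. The gated arrays lay on different slides. In other GFP-positive cells of E11.5 against E9.5, on 1 slide, 2 of 17 transcription factors were 4-fold lower, Lmo2 (30.3-fold) and Lyl1. Gata2 alone was 4-fold higher there (5.34-fold), and 4 of 10 endothelial markers were 4-fold lower. Lower Lmo2, Lyl1 and endothelial markers were thus not particular to the gate. In the gate of E11.5 against the other GFP-positive cells, Gata2 was at least 24.1-fold lower, the stem cell factor receptor Kit 12-fold and Epor 4.27-fold. Over all genes 5.07% were 4-fold apart there in either direction. The members measured there lay within 2-fold at the scaling used here, except Hbb-bh1, for which only a bound was available. Several of them lay close to background. The adaptor Sh2b3 was 6.43-fold higher in that gate. Cygb, the cytoglobin of connective tissue cells, was 5.60-fold higher in the other GFP-positive than in the GFP-negative cells of E9.5 (-0.01 against -2.50), the reverse of the red cell globins.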
